A study of Mus musculus with 18 samples.

Results

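SUN1L-expressing cells were compared with KDEL control cells on a stiff gel of 308 kPa. The 6 libraries of this comparison were chosen from the 18 messenger RNA libraries of the study by their labels alone: 3 of SUN1L cells (libraries 7, 19 and 31) and 3 of KDEL cells (libraries 8, 20 and 32), none of them with an inhibitor. All were NIH 3T3 cells, an established line of mouse embryonic fibroblasts, carrying a Tet-On activator and grown on fibronectin-coated polyacrylamide with 1 μg/ml doxycycline for 48 hr. SUN1L cells (SS-HA-Sun1L-KDEL) made the lumenal domain of SUN1 with a signal sequence, an HA tag and the KDEL retrieval sequence, and KDEL cells (SS-GFP-KDEL) made GFP in its place, so that puromycin selection, doxycycline and the KDEL sequence were common to both. Each construct was carried by 1 stable line, and the methods mention sorting by fluorescence for the KDEL line. Expression of the construct and identity of the line therefore cannot be told apart, and cells without doxycycline were not analysed here. The other libraries used were SUN1L cells on 1 kPa (3, 15 and 27), KDEL cells on 1 kPa (4, 16 and 28), 5 libraries of KDEL cells on the stiff gel with an inhibitor of contractility (Y27 at 25 μM or blebbistatin at 10 μM), and 1 library (34) of inhibited cells with an empty vector, whose labels disagree on the inhibitor.

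The LINC complex joins the nucleus to the cytoskeleton. SUN proteins span the inner nuclear membrane and, in the space between the nuclear membranes, hold the KASH domains of nesprins, which span the outer membrane and bind actin, intermediate filaments or motors. A free SUN1 lumenal domain occupies KASH domains and so displaces nesprins from the endogenous SUN proteins. In fibroblasts the complex carries actomyosin force to the nucleus and takes part in nuclear positioning. The question of this comparison was which messenger RNAs differ when the complex is disrupted in cells that spread on a stiff substrate.

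The deposited values were normalized signal per gene, with 1 as the lowest value. The 6 libraries summed to 29831788 to 34456361 signal units. One read pair was worth between 1.81 and 2.485 signal units in these libraries, which implies 12940000 to 17580000 read pairs each, so values of 1 to 3 stand for about 1 pair or none. The fibroblast identity was checked on 14 marker genes, whose signal summed to 568600 to 758900 per library. Summed markers of epithelial (236.5 to 530.8), skeletal muscle (308.7 to 712), adipocyte (247 to 331), endothelial (363 to 1170), immune (275.4 to 924.6) and neural cells (10.64 to 23.3) were far lower. Of these lists and the fibroblast list 0 genes were called, which is near the share of 0.0624% called over all genes tested. In library 7 (SUN1L) and library 8 (KDEL) genes of dividing cells were low: the mean log2 signal of 48 G2/M genes was 8.97 and 9.22 there, against 11.46 and 11.60 in the other SUN1L libraries and 11.31 and 11.87 in the other KDEL libraries. Results are therefore also given without both of these libraries.

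Sun1, the gene from which the construct was made, was 16.7-fold higher in SUN1L cells. Sun1 (ENSMUSG00000036817) lies on the plus strand of chromosome 5 of GRCm38, from 139200637 to 139249840. Its signal was 73357, 54072 and 38452 in SUN1L libraries 7, 19 and 31, and 3362, 3193 and 3035 in KDEL libraries 8, 20 and 32. All SUN1L libraries lay above all KDEL libraries, with a wider spread among the SUN1L libraries. The log2 difference, SUN1L minus KDEL, was 4.06 (standard error 0.24, n = 3 and 3), with an adjusted p of 8.31e-05 from limma over all genes tested. Reads of the construct and of the endogenous gene are pooled in this value.

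None of the other LINC and lamina genes named by rule was called, which for so few genes is near the share of 0.0624% over all genes tested. Sun2, the second SUN protein of fibroblasts, had 2628, 3351 and 2760 in SUN1L and 2564, 3158 and 2917 in KDEL libraries. That is a log2 difference of 0.01, with a 95% interval from −0.31 to 0.34. The difference was 0.14 for Syne1 (interval −0.78 to 1.06), 0.02 for Syne2 (−0.74 to 0.78) and −0.07 for Syne3 (−0.96 to 0.81), the genes of nesprin-1, nesprin-2 and nesprin-3. It was −0.07 for Lmna (−0.70 to 0.56), which encodes the A-type lamins, and −0.02 for Emd (−0.42 to 0.38), which encodes emerin. Lmnb1, the gene of lamin B1, had 471, 2173 and 3554 in SUN1L libraries and 576, 2013 and 4249 in KDEL libraries. Its level was lowest in libraries 7 and 8 and its interval, −2.12 to 1.83, leaves even a 2-fold difference undetectable. The intervals of the nesprin genes also reach close to 2-fold or beyond, so absence of a difference is not shown for them.

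Across the whole table, 10 genes were called, a call meaning a 2-fold or larger difference with a limma p below 0.05 after Benjamini-Hochberg adjustment. They were 0.0624% of the 16021 genes tested. Called higher in SUN1L cells were 3 genes (0.0187%): Sun1, Rad1 and Cox7b2. Called lower were 7 genes (0.0437%): Ttyh3, Rgl3, Pof1b, Olfr1028, Xlr4a, Serpina1a and Serpina1b. Before adjustment, 406 genes (2.53%) had a p below 0.05, of which 218 were higher and 188 lower. The 3 SUN1L and 3 KDEL libraries did not overlap for 687 genes, or 4.29%. The median log2 difference over all genes tested was −0.029. The fit shares its estimate of the spread with the libraries on 1 kPa. With the 6 libraries on 308 kPa alone, the genes called were 2, Sun1 and Pof1b, and with all 18 libraries in the fit they were 16, among them all 10.

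**Figure D1:**
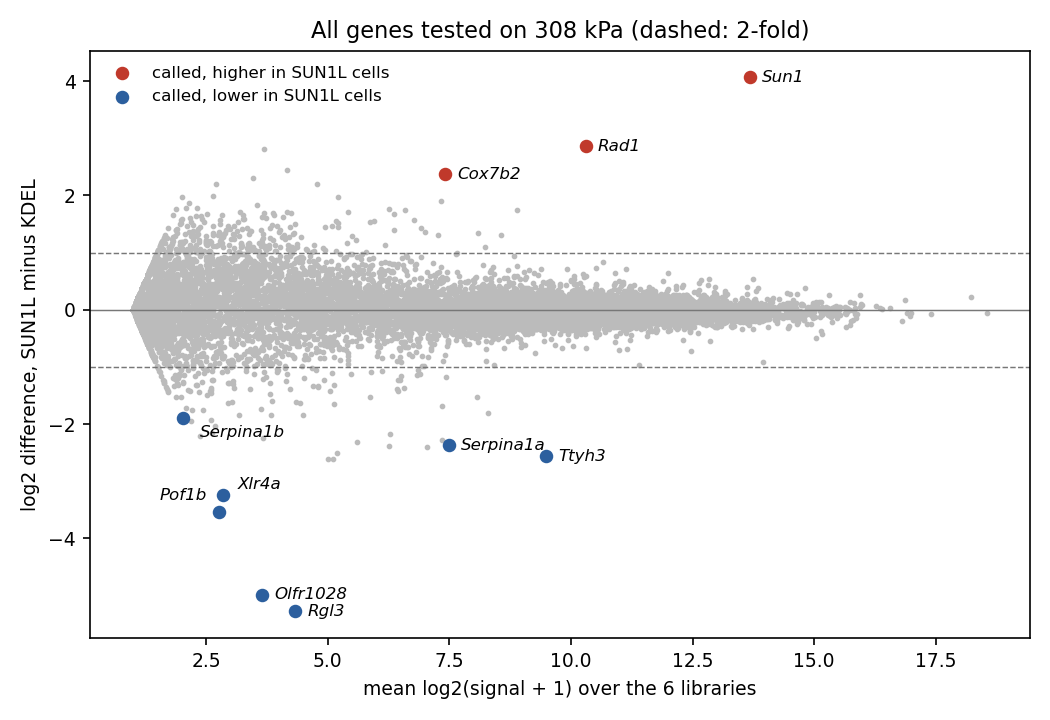
Each point is 1 of the 16021 genes tested, with its mean log2(signal + 1) over the 6 libraries on the x axis and its log2 difference, SUN1L minus KDEL on 308 kPa, on the y axis. Dashed lines mark a 2-fold difference. The called genes are labelled, and Sun1 at 4.06 and Rgl3 at −5.27 lie at the ends.

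Rad1 rose 7.24-fold in SUN1L cells. Its product is a subunit of the Rad9-Rad1-Hus1 clamp, a ring loaded onto damaged DNA to activate the ATR checkpoint kinase. The signal of Rad1 (ENSMUSG00000022248, chromosome 15 from 10486018 to 10499063, plus strand) was 5011, 2202 and 3528 in SUN1L libraries and 387, 446 and 590 in KDEL libraries. Library 7 was the highest and library 8 the lowest, so that the difference within the run of libraries 7 and 8, a log2 difference of 3.69, exceeded those of libraries 19 and 20 (2.30) and 31 and 32 (2.58). Over 3 against 3 the log2 difference was 2.86 (standard error 0.32), with an adjusted p of 0.00502 from limma. Without libraries 7 and 8 it was 2.44, with an adjusted p of 0.119, and of 0.042 with a block on runs. The other clamp subunits were close to equal. Hus1 had 1020, 1130 and 1120 against 1150, 1040 and 1110, a log2 difference of −0.02, and Rad9a differed by 0.09.

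Rad1 starts head to head with Brix1, a gene of ribosome assembly on the opposite strand, and the deposited table puts 70 bases between the starts. The stretch is shown because the genes on its sides differed in response. It is chr15:10485907-10486067 of GRCm38.p6 on the plus strand, from the RefSeq promoter of Rad1, and capitals mark the bases between both starts.
Rad1 and Brix1: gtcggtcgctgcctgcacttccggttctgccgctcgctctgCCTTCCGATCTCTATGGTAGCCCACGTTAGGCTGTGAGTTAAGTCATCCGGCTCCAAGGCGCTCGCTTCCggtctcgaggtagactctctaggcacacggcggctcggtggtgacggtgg
Brix1 had 2520, 1904 and 2597 in SUN1L libraries and 2547, 1707 and 2130 in KDEL libraries. These groups overlapped, and the log2 difference of 0.14 (interval −0.22 to 0.50) had an adjusted p of 1 from limma.

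Cox7b2 rose 5.17-fold. It encodes an isoform of subunit VIIb of cytochrome c oxidase that is known from testis. The signal of Cox7b2 (ENSMUSG00000049387, chromosome 5 from 71442824 to 71548205, minus strand) was 325, 377 and 474 in SUN1L libraries and 96.3, 64.0 and 65.9 in KDEL libraries. The groups were far apart, and library 8 stood above the other KDEL libraries. The log2 difference was 2.37 (standard error 0.25), with an adjusted p of 0.00286 from limma, and 2.68 without libraries 7 and 8, with an adjusted p of 0.0181. Cox7b, the widely expressed isoform, had 2400, 2880 and 4090 against 2660, 2910 and 3720, a log2 difference of −0.01. Of 17 tested genes of cytochrome c oxidase subunits, Cox7b2 was the 1 called, beside 0.0624% of all genes tested. The list median was 0.02. As the list was chosen with earlier results of these data known, its called gene is no separate result.

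Ttyh3, a tweety family member described as a chloride channel, fell 5.91-fold. Its signal (ENSMUSG00000036565, chromosome 5 from 140620586 to 140649031, minus strand) was 386, 335 and 194 in SUN1L libraries and 1624, 2002 and 1610 in KDEL libraries. The highest SUN1L library was far below the lowest KDEL library. The log2 difference was −2.56 (standard error 0.24, adjusted p 0.00183 from limma), and −2.81 without libraries 7 and 8 (adjusted p 0.0181). Its paralog Ttyh2 had 2710, 4110 and 3530 against 2550, 5410 and 3480 and differed by −0.10. Ttyh1 was low in both, at 16.5 to 47.2 signal units over the 6 libraries. Among 26 tested tweety, anoctamin, LRRC8 and other chloride channel genes, Ttyh3 was the 1 called, with a list median of −0.08. With the block 2 were called, Ttyh3 and Ano3. Over all genes tested 0.0624% were called, and 0.0749% with the block. This list too was chosen with earlier results known, so its called genes are no separate result.

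Rgl3, an exchange factor of the RalGDS family that acts on Ral GTPases, had the largest fitted fall of the genes called. Rgl3 (ENSMUSG00000040146, chromosome 9 from 21971527 to 21989453, minus strand) had 1.81, 4.97 and 1 in SUN1L libraries and 105, 146 and 123 in KDEL libraries. In SUN1L cells it was at the level of at most a few read pairs. The log2 difference of −5.27 (standard error 0.55, adjusted p 0.00286 from limma) depends on the 1 added before the logarithm, since the SUN1L values are so low. Without libraries 7 and 8 it was −5.29, with an adjusted p of 0.113. The paralogs Rgl1 (log2 difference −0.16) and Rgl2 (0.21) were at 1060 to 2210 signal units in every library.

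Pof1b, which encodes an actin-binding protein of epithelia, was at the lowest value of 1 in all 3 SUN1L libraries. In KDEL libraries Pof1b (ENSMUSG00000034607, chromosome X from 112638431 to 112698651, minus strand) had 22.1, 25.7 and 19.6. The fitted log2 difference of −3.54 (standard error 0.29, adjusted p 0.000815 from limma) is set by the added 1 and is no measure of the true fold. Olfr1028, an olfactory receptor gene with no known role in fibroblasts (ENSMUSG00000057207, chromosome 2 from 85951065 to 85952039, plus strand), had 1.77, 1 and 1 against 48.6, 62.8 and 110. Its fitted log2 difference was −4.99 (standard error 0.42, adjusted p 0.000815 from limma). Without libraries 7 and 8 the adjusted p from limma was 0.0232 for Pof1b and 0.0181 for Olfr1028. With a block on runs added as well it was 0.0662 and 0.0058, so Pof1b lost the call there.

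Of the 5 Serpina1 genes, 2 were called lower in SUN1L cells, and the groups did not overlap for 4. Over all genes tested, 0.0437% were called lower and 4.29% did not overlap. The Serpina1 genes encode mouse forms of alpha-1 antitrypsin, a protease inhibitor made mainly by the liver. Serpina1a (ENSMUSG00000066366, chromosome 12 from 103853589 to 103863562, minus strand) had 72.1, 99.4 and 65.3 in SUN1L libraries and 386, 409 and 424 in KDEL libraries. It fell 5.18-fold (log2 difference −2.37, standard error 0.24, adjusted p 0.00286 from limma), and each of the 3 runs showed the fall (−2.41, −2.03 and −2.68). Without libraries 7 and 8 the difference was −2.36, with an adjusted p of 0.101. Serpina1b (ENSMUSG00000071178) was near the lowest value, with 1.41, 1 and 1 against 7.21, 6.85 and 6.55. Its log2 difference was −1.89 (adjusted p 0.0487 from limma), and it lost the call with any 1 of the 6 libraries left out. Serpina1c, just outside the limit (adjusted p 0.0531 from limma), had 10.8, 11.8 and 10.0 against 40.5, 35.1 and 50.7. Serpina1d had 8.16, 2.49 and 8.56 against 13.0, 29.0 and 26.3, and Serpina1e was at 1 to 1.07 in all 6 libraries. These genes are near-identical copies that can share reads, and the deposited interval of Serpina1b (103728156 to 103830373) covers Serpina1d, so the split of the signal among them is uncertain.

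The promoters of the 5 Serpina1 genes are shown because they are near-identical, while 4 of the genes were lower in SUN1L cells and Serpina1e was near the lowest value in both groups. The stretches of 150 bases are from RefSeq on GRCm38.p6, all on the minus strand. They were cut so that GTTAAT, in capitals, falls at the same place in each.
Serpina1a, chr12:103863581-103863730: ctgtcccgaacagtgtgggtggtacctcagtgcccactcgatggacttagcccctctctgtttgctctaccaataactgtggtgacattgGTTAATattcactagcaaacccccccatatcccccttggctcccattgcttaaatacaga
Serpina1b, chr12:103738156-103738305: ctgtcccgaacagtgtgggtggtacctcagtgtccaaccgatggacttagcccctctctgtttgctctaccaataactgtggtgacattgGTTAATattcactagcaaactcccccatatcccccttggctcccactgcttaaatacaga
Serpina1c, chr12:103904918-103905067: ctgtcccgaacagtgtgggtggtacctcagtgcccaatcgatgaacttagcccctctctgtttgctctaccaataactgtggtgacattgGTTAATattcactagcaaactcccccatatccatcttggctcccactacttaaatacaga
Serpina1d, chr12:103773590-103773739: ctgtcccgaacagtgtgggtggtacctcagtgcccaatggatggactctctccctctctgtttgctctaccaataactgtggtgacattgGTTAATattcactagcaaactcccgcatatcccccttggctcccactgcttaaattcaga
Serpina1e, chr12:103956916-103957065: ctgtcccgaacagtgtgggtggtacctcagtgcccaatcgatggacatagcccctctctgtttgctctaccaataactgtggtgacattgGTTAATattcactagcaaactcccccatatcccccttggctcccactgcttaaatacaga
Of these 150 bases, 133 were the same in all 5 genes. Serpina1a and Serpina1e differed at 4 positions. GTTAAT or its reverse complement ATTAAC occurred in 5 of 5 Serpina1 promoters and in 7.1% of 32817 mouse promoter windows of 300 bases, the search covering both strands. As the promoters are near-identical copies, 5 of 5 is not 5 separate observations.

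Xlr4a, a member of the X-linked lymphocyte-regulated family, fell to the lowest values, while its neighbour Xlr4b was higher in every SUN1L library than in any KDEL library. Xlr4a (ENSMUSG00000079845, chromosome X from 73074345 to 73082478, minus strand) had 1, 1 and 2.14 in SUN1L libraries and 23.9, 21.6 and 18.1 in KDEL libraries, a fitted log2 difference of −3.25 (standard error 0.29, adjusted p 0.00105 from limma). Xlr4b had 7.25, 9.94 and 4.28 against 1, 1 and 1.96. The log2 difference of Xlr4b was 1.78 and was not called (adjusted p 0.447 from limma). Their promoters are set side by side because of these opposite values, as 200 bases of each from RefSeq on GRCm38.p6, with capitals at the 4 bases that differ.
Xlr4a, chrX:73082558-73082757, minus strand: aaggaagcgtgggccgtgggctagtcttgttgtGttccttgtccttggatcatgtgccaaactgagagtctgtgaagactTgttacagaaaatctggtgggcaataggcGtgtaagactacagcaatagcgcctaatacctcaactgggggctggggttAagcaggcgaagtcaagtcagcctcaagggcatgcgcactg
Xlr4b, chrX:73214090-73214289, plus strand: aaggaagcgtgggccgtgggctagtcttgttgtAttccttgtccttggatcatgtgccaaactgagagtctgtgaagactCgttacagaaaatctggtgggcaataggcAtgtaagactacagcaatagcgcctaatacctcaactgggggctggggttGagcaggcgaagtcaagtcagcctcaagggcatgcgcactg
The stretches were 98.0% identical. Xlr4c was at 1 to 6.42 signal units in all 6 libraries. Reads may be divided unevenly between such copies, so the values of single Xlr genes are uncertain too.

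**Figure D2:**
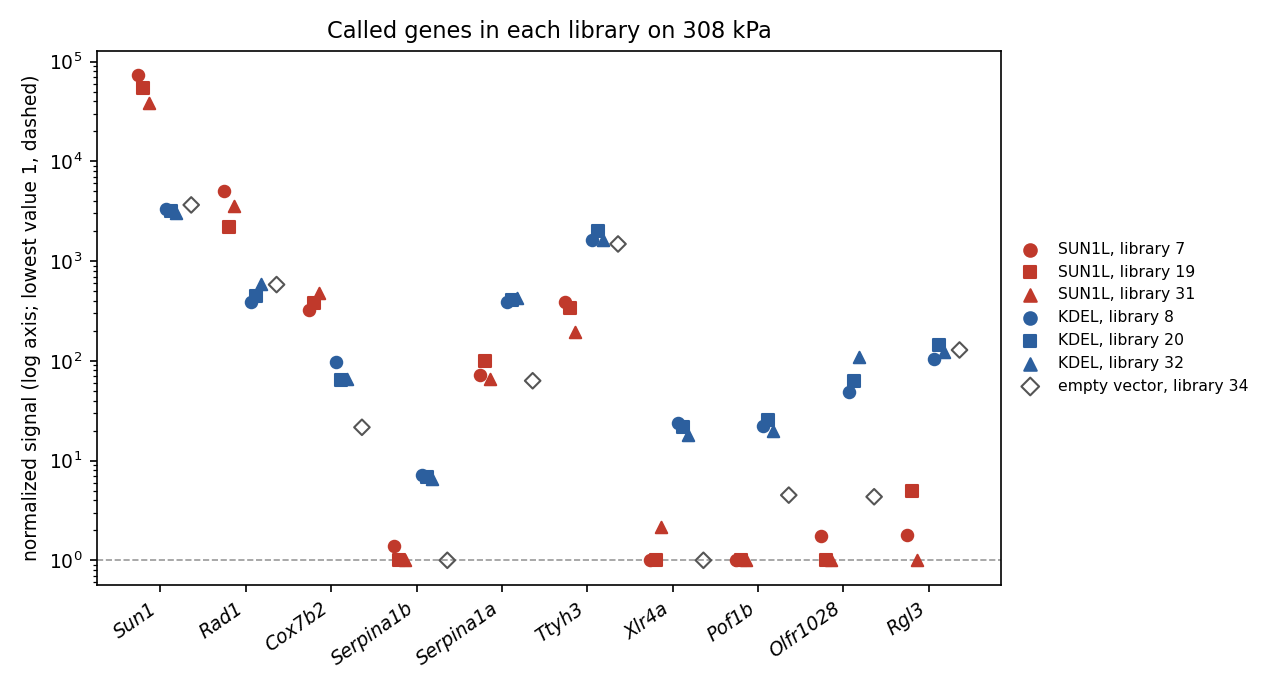
Normalized signal, on a log axis, of the 10 called genes in each of the 3 SUN1L and 3 KDEL libraries on 308 kPa, with the same marker for libraries of 1 run, and in the empty vector library. No called gene has overlapping groups, and the dashed line marks the lowest deposited value of 1.

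The called genes were then followed in the libraries outside this comparison. Over all 6 SUN1L and all 11 KDEL libraries, which include the soft gel and the inhibitors, 9 of the 10 called genes did not overlap. These 17 libraries also hold the 6 by which the genes were called, so the separation was in part set by the call. Serpina1b was the exception, with up to 6.03 in SUN1L and down to 5.92 in KDEL libraries. Rad1 had 2330 to 4840 in SUN1L cells on 1 kPa, 421 to 554 in KDEL cells on 1 kPa, and 380 to 643 in the 5 libraries of inhibited KDEL cells. Ttyh3 had 283 to 410, 2120 to 2590 and 1380 to 2420 in the same groups, and Cox7b2 had 355 to 455, 65.1 to 94.2 and 67.7 to 107. Rgl3 had 1 to 7 in SUN1L cells on 1 kPa and 105 to 179 over the 11 KDEL libraries. These ranges of SUN1L and KDEL libraries stayed apart on both rigidities, and the inhibited KDEL libraries lay on the KDEL side. Of all genes tested, 106 (0.662%) did not overlap over these 17 libraries, 43 of them higher and 63 lower in SUN1L cells, and 43 (0.268%) also differed at least 2-fold on 308 kPa.

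In the single empty vector library the called genes did not all resemble KDEL cells. Sun1 (3656), Ttyh3 (1484), Rgl3 (128) and Rad1 (581) were within the range of the 11 KDEL libraries. Xlr4a and Serpina1b, both at 1, were within the range of SUN1L libraries, and Serpina1a, at 63.1, was below all libraries of both constructs. Pof1b (4.50) and Olfr1028 (4.34) lay between the ranges, just above the SUN1L and far below the KDEL libraries. Cox7b2, at 21.6, was below the KDEL libraries and so farther from SUN1L cells than they were. Of the non-overlapping genes just counted, 43 differed at least 2-fold on 308 kPa. For 18 of these 43 genes, the empty vector library was nearer to the SUN1L mean of log2 signal. This library is 1 sample of yet another line and had an inhibitor, so no test was made.

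The soft gel gave a comparison of the same lines with other libraries, though in the same fit. The spread was estimated over both gels, so p-values on 1 kPa are not independent of those on 308 kPa. On 1 kPa the log2 differences of the called genes were 4.32 for Sun1, 2.80 for Rad1, 2.44 for Cox7b2, −2.70 for Ttyh3, −5.07 for Rgl3, −3.58 for Pof1b, −4.52 for Olfr1028, −2.94 for Xlr4a, −2.30 for Serpina1a and −1.04 for Serpina1b. The adjusted p on 1 kPa from limma was 0.692 for Serpina1b, and in the other 9 genes it ran from 4.42e-05 for Sun1 to 0.00551 for Rad1. The interaction, the difference on 308 kPa minus that on 1 kPa, lay between −0.47 for Olfr1028 and 0.14 for Ttyh3 in those 9 genes, with unadjusted p-values from limma of 0.441 to 0.937. For Serpina1b it was −0.85 (unadjusted p 0.0523, adjusted p 1). On 1 kPa SUN1L library 3 had low dividing-cell genes (Kif20a 454), and no KDEL library there did (2946 to 4114). The median log2 difference of G2/M genes was −1.19 on 1 kPa and −0.14 on 308 kPa. Division and rigidity cannot be told apart in the interaction of such genes. Over all genes tested, 145 had an unadjusted interaction p under 0.05, or 0.905%, and 0 an adjusted p under 0.05 in limma. With the block, 333 had such an unadjusted p and again 0 passed the adjustment. No called gene therefore had a difference that was shown to be particular to the stiff gel.

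Apart from the Serpina1 genes, no gene among the 3 nearest tested on either side of a called gene was called. Over all genes tested 0.0624% were called, so a count of 0 is near that share. Of the 3 nearest tested genes on either side of Sun1, 0 were called and the log2 differences ran from −0.29 to 0.30. Get4, 2.48 kb behind Sun1, had means of 2520 and 2610. Ttyh3 lies on the same chromosome as Sun1, with 1.37 Mb between the genes. The 24 tested genes in that gap had a median of −0.07 and a range of −0.62 to 0.24. Of them 0 had an unadjusted p under 0.05 in limma, near the share of 2.53% over all genes tested. Lfng, 5.04 kb from Ttyh3, differed by 0.17, and Ccdc151, 0.418 kb from Rgl3, by −0.24. Serpina1a and Serpina1b are neighbours of each other.

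**Figure D3:**
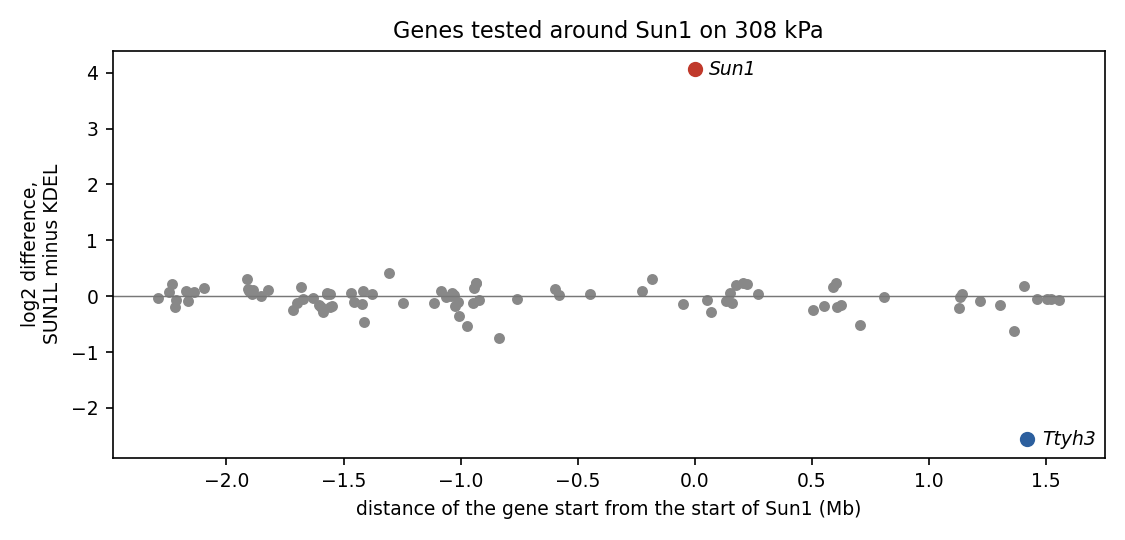
Log2 difference, SUN1L minus KDEL on 308 kPa, of each tested gene around Sun1 against the distance of its start from that of Sun1 in Mb. Sun1 (4.06) and Ttyh3 (−2.56) stand out, while the 24 genes between them stay between −0.62 and 0.24.

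Both libraries 7 and 8, those on 308 kPa with low levels of dividing-cell genes, were then left out. In that fit 6 genes were called, or 0.0375%: Sun1, Cox7b2, Ttyh3, Pof1b, Olfr1028 and Xlr4a. These are all among the 10. Library 3, of SUN1L cells on 1 kPa, was about as low (Kif20a 454, against 422 and 640 in libraries 7 and 8). It stayed in the fit and in its estimate of the spread. Rad1, Rgl3, Serpina1a and Serpina1b lost the call, at differences of 2.44, −5.29, −2.36 and −1.94, with 2 libraries left on each side. With the block added as well, 5 were called (Sun1, Cox7b2, Ttyh3, Olfr1028 and Rad1), and Xlr4a had an adjusted p of 0.1 from limma. With all 6 libraries, a block term for the run brought the genes called to 12, or 0.0749%, and those with an unadjusted p under 0.05 to 949, or 5.92%. All 10 genes kept the call under the block. The genes it added, Ano3 and Isyna1, were named after their values were seen.

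Ano3, of the anoctamin family of membrane proteins, had 1483, 854 and 513 in SUN1L libraries and 389, 279 and 161 in KDEL libraries. In both groups the level was highest in the run of libraries 7 and 8 and lowest in that of 31 and 32, and the adjusted p from limma went from 0.772 to 0.00344 with the block (log2 difference 1.74). Isyna1, which makes inositol phosphate from glucose phosphate, had 334, 437 and 569 against 126, 172 and 229, a log2 difference of 1.35 with an adjusted p from limma of 0.368, or 0.00646 with the block. Klf10, a zinc finger factor induced by TGF-beta, had 2567, 3571 and 2600 against 1423, 2064 and 1831. With the block its adjusted p from limma was 0.049, below the limit, but its log2 difference of 0.72 was under 2-fold. In the empty vector library Ano3 was at 428, Isyna1 at 381 and Klf10 at 5361, the last above all 6 libraries. Without libraries 7 and 8, the blocked adjusted p from limma was 0.128 for Ano3 and 0.0804 for Isyna1, so neither was called.

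Below the calls, a pair of similar genes had differences of opposite sign. Akr1c13 and Akr1c12 encode aldo-keto reductases and are near-identical neighbours. Akr1c13 had 350, 348 and 244 in SUN1L libraries and 110, 68.8 and 72.5 in KDEL libraries (log2 difference 1.91, adjusted p 0.0987 from limma), while Akr1c12 had 93.4, 118 and 64.2 against 333, 260 and 281 (−1.69, adjusted p 0.447). Reads may be shared between them. Cd97, an adhesion G protein-coupled receptor named here after its values were seen, had 26.02, 48.1 and 35.7 in SUN1L and 110, 174 and 226 in KDEL libraries, with a log2 difference of −2.17 and an adjusted p of 0.06 from limma.

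Among genes above the median level whose groups did not overlap, the differences were small apart from those of Sun1, Rad1 and Ttyh3. On the higher side came Klf10, Lbh, a transcription cofactor (log2 difference 0.53), Ankrd12 (0.50), Pla2g7, an acetylhydrolase of platelet-activating factor (0.45), Ddah2 (0.44) and the microtubule protein gene Mtcl1 (0.36). On the lower side came Ablim1, an actin-binding LIM protein (−0.66), C1ra of the complement cascade (−0.51), the collagen gene Col5a2 (−0.43), 9030617O03Rik (−0.43), Pcca (−0.40) and Fam131b (−0.36). Col5a2 had 29028, 33263 and 33010 against 41291, 37008 and 51245. None of these was called, and their adjusted p from limma lay between 0.733 and 1.

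Gene lists of processes linked to the LINC complex are given beside the shares over all genes tested. Of 23 tested LINC and lamina genes, Sun1 was the 1 called, 7 were higher and 16 lower, and the median was −0.06. Integrins (19 tested, median 0.15), focal adhesion adaptors and kinases (24, −0.08), SRF and actin targets (22, −0.08), YAP targets (21, −0.08) and genes of cell motility and small GTPases (33, −0.06) each had 0 called genes and 0 with an unadjusted p under 0.05. Over all genes tested, 0.0624% were called, 2.53% had such a p in limma, the median was −0.029, and 6871 were higher and 9072 lower. In lists of this size, counts of 0 are near those shares. Itgb1, the main fibronectin receptor subunit of fibroblasts, had 24710, 32874 and 28953 against 27912, 38346 and 36769 (log2 difference −0.25). Collagens and matrix genes had 9 higher and 24 lower of 33 tested, with a median of −0.16. None had an unadjusted p under 0.05 in limma. With the block, 4 were lower at such a p, namely Fbln5 (−0.72), Thbs1 (−0.91), Lox (−0.49) and Col5a2, beside 493 lower and 456 higher among all 16021 genes tested (5.92% in both directions). Fbln5, an elastic fibre protein, had 3290, 6744 and 3885 against 4535, 12249 and 6917.

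Genes of endoplasmic reticulum chaperones and the unfolded protein response, the compartment in which both constructs are retained, had 17 higher and 13 lower of 30 tested, with a median of 0.02. Xbp1, a transcription factor of that response, had 2581, 2229 and 2275 against 3185, 3016 and 2521 (log2 difference −0.30, unadjusted p 0.04 and adjusted p 1 from limma). The medians were 0.05 for p53 targets (23 tested), 0.12 for calcium channels and pumps (30) and 0.05 for interferon-stimulated genes (21). In these lists 0 were called and 0 had an unadjusted p under 0.05 in limma. For so few genes that is near the shares over all genes tested, 0.0624% and 2.53%. Single genes ranged further, up to 0.88 among calcium channels and pumps and up to 0.84 among interferon-stimulated genes. In the list of NRF2 targets and aldo-keto reductases (24 tested, median −0.01), 0 were called. Of 19 genes of the clamp and the ATR pathway, Rad1 was the 1 called, and the median was −0.02. Of 23 serpins tested, the 2 called were Serpina1a and Serpina1b, with a list median of −0.15 and of −0.49 without libraries 7 and 8. The clamp and serpin lists were chosen with earlier results of these data known, so the called genes they hold are no separate result.

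Lists tied to growth varied between runs. Over all genes tested, 6871 were higher and 9072 lower in SUN1L cells. G2/M genes had 5 higher and 43 lower of 48 tested, with a median of −0.14, but the medians of the single runs were −0.30 for library 7 minus library 8, 0.14 for 19 minus 20 and −0.27 for 31 minus 32. S phase genes had 9 higher and 33 lower of 42 (median −0.05), with run medians of −0.14, 0.10 and −0.20. All 22 sterol synthesis genes were lower in SUN1L cells, with a median of −0.30 and run medians of −0.07, −0.31 and −0.46. Their mean log2 signal was 10.06, 11.95 and 11.78 in SUN1L and 10.13, 12.26 and 12.19 in KDEL libraries, so the groups overlapped. In limma 0 genes of the list had an unadjusted p under 0.05. For so few genes that is near the share of 2.53% over all genes tested. Dhcr7, the last enzyme of cholesterol synthesis, had 300, 647 and 606 against 344, 855 and 878 (log2 difference −0.38, adjusted p 1 from limma).

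Immediate-early genes, which answer growth factors and stress within minutes, had 21 higher and 1 lower of 22 tested, with a median of 0.36. The run medians were 0.75, 0.31 and −0.19, and the median without libraries 7 and 8 was 0.15. Ier3 had 1523, 2462 and 1788 in SUN1L libraries and 505, 1409 and 2081 in KDEL libraries (log2 difference 0.73), and library 8 was the lowest. The mean log2 signal of the list was 9.80 in library 8, against 10.00 to 10.74 in the other 5 libraries. None of these genes was called, which for so few genes is near the share of 0.0624% over all genes tested. Over all genes tested, 6871 were higher and 9072 lower. Among the 6 libraries, libraries 7 and 8 had the lowest levels of dividing-cell genes and of sterol synthesis genes. They also had the largest difference in immediate-early genes. The part of dividing cells in these medians was not tested.

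**Figure D4:**
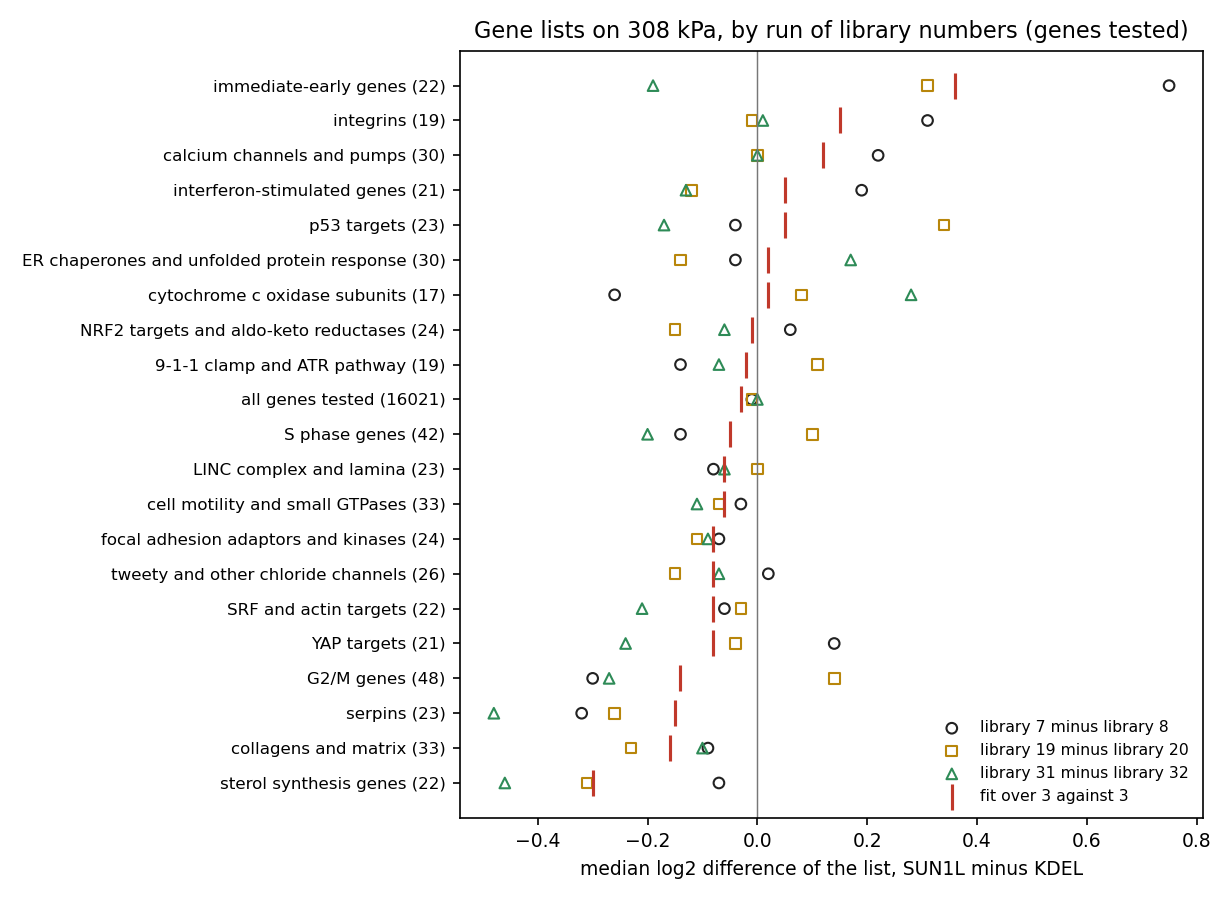
Median log2 difference, SUN1L minus KDEL on 308 kPa, of each gene list, with the number of genes tested in brackets. Open markers give the difference of the libraries of 1 run and red ticks the fit over 3 against 3. The runs disagree in sign for immediate-early genes (0.75, 0.31 and −0.19) and G2/M genes (−0.30, 0.14 and −0.27), and agree for sterol synthesis genes (−0.07, −0.31 and −0.46).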

How the data were processed

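The authors sequenced polyadenylated RNA, mapped reads with TopHat 2.0 (the methods name mm9) and normalized in AvadisNGS by trimmed means of M-values. The deposited table holds 1 normalized signal for each gene in each library, linear, with 1 as its lowest value. Its positions lie on GRCm38: 99.91% of matched genes overlapped their reference position there and 12.14% on NCBIM37. The empty vector column carried another serial number than its sample's title and was matched by its heading.

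Of values under 50 steps of 1 read pair, 36.4% to 39.7% per library were whole multiples (within 0.02 steps), so no count test was used. In R 4.3.3, limma 3.58.1 was fitted to log2(signal + 1) with trended prior variance and 1 mean per group, over the 12 SUN1L and KDEL libraries without inhibitor. Tested were 16021 of 22019 genes, those above 1 in at least 3 of 18 libraries. Tests were two-sided, and the limits of 2-fold and 0.05 were the study's. An exact permutation test of 3 against 3 cannot go below 0.1.

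By serial number the libraries form runs: 3 to 12, then 15 to 24, then 27 to 36. Deviations from the group means correlated at 0.661 for libraries 7 and 8, 0.445 for 19 and 20 and 0.595 for 31 and 32, against −0.606 to 0.07 across runs. The deviations of a group cancel out, so high values within runs bring low ones across runs, which are no separate evidence. On the values within runs, the run was used as a block. The methods describe the 3 libraries of a condition as biological replicates, and p-values measure the spread between them within 1 line per construct.

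Named genes were those called, 8 LINC and lamina genes, the 8 largest rises and falls among genes above the median level whose groups did not overlap, neighbours of called genes, and up to 3 genes of each list by p. The comparison, lists and rules were chosen with earlier results of these data known. Alternatives were other filters, pseudocounts of 8 and 0.1, quantile normalization, other sets of libraries, no trend, array weights, the block, and libraries left out. MicroRNA data were not used here, and some genes these rules name are not reported here.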

Additional observations from a re-analysis of the deposited data

How the results depend on the processing

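The number of called genes, 10, was 9 to 10 with any 1 library left out, each time without Serpina1b. It was 2 with the 6 libraries on 308 kPa alone, 16 with all 18 libraries, 6 without libraries 7 and 8, 5 when the block on runs was added to that, and 0 with the block on the 6 libraries alone, where 1033 genes had an unadjusted p under 0.05 in limma. With the block on the runs of all 12 libraries it was 12, and the block changed no call of the 10. The other alternatives gave 9 to 13. Where a count fell as libraries were left out, fewer samples entered the fit, and other causes were not tested. Signs turned only for genes that were not called. With quantile normalization Emd was at 0.02. With array weights Emd was at 0.04, G2e3 at 0.08, Kif20a at 0.01, Anln at 0.13 and Wdr76 at 0.03. Without libraries 7 and 8, with or without the block, Syne1 was at -0.00, Syne2 at -0.21, Lmna at 0.05, Emd at 0.11 and Perp at 0.00. With 1 library left out, the log2 difference ranged from -0.09 to 0.08 for Sun2, -0.27 to 0.46 for Syne1, -0.36 to 0.32 for Syne2, -0.42 to 0.27 for Syne3, -0.31 to 0.24 for Lmna, -0.93 to 0.71 for Lmnb1, -0.15 to 0.12 for Emd, -0.52 to 0.05 for G2e3, -1.2 to 0.75 for Kif20a, -0.00 to 0.25 for Perp, -0.78 to 0.05 for Tm7sf2 and -1.08 to 0.16 for Pmvk. The log2 fold change of Anln ranged from -1.03 to 0.59, and the log2 fold change of Wdr76 from -0.76 to 0.06. Of the other log2 differences, 1542 kept sign and side of the limit, 36 lost the call and 8 gained it. List medians moved past the replicate spread in 78 of their recomputations and stayed within it in 461. Values near 1 rest on about 1 read pair or none, which limits Pof1b, Rgl3, Xlr4a, Olfr1028 and Serpina1b.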
